A study of Mus musculus with 22 samples.

Results

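The nuclear genes of oxidative phosphorylation encode most subunits of the mitochondrial respiratory chain and of ATP synthase. They were taken as the protein-coding genes, present in the count tables of both lines and tumors, whose symbols begin with Ndufa, Ndufb, Ndufc, Ndufs, Ndufv, Uqcr, Cox4 to Cox8 or Atp5, together with Sdha, Sdhb, Sdhc and Sdhd. Ndufa4l2 and the Ndufaf assembly factors were left out. The rule used names and no measured values. It found 84 genes among the 53342 of the tables, of which 21852 are protein-coding, and 13 further symbols that fit the pattern were left out because they are not protein-coding. By complex, 36 genes belong to complex I, 4 to complex II, 8 to complex III, 19 to complex IV (Ndufa4 included) and 17 to complex V. Apart from Ndufa4, genes were assigned by symbol, so Cox7a2l counts with complex IV and Atp5s with complex V. The rule misses Cyc1, the nuclear gene of cytochrome c1, so sums and counts of complex III lack that subunit.

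Complexes I and II pass electrons from NADH and succinate to ubiquinone, complex III passes them to cytochrome c, and complex IV passes them to oxygen. Complexes I, III and IV pump protons across the inner mitochondrial membrane, and complex V, the ATP synthase, makes ATP as protons flow back. Complexes I, III, IV and V also hold subunits made from the mitochondrial genome, which are not analysed here, so the nuclear genes give one side of each such complex.

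The 22 libraries came from Bl6 mice with K-Ras-driven pancreatic cancer that carried microRNA-21 (WT) or lacked it (KO). Cell lines numbered 5 WT and 5 KO, and whole snap-frozen tumors numbered 4 WT and 8 KO. No animal or line was treated, and the age of the animals, the promoter driving K-Ras and the design of the knockout are not given in the sources used here. Lines had been dissociated from tumors of symptomatic animals and passaged to lose fibroblasts, and the labels state that recombined K-Ras and p53 alleles, with loss of heterozygosity, were found in them by genotyping. Each line is 1 culture from 1 animal, and by their titles 5 animals (3 WT, 2 KO) are sources of a line and of a tumor too. The p-values measure the spread between these libraries.

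Library totals ran from 24547650 to 31118113 counts, of which the 84 genes took 0.638% to 1.051%. The row of the targeted gene, Mir21a, had 0 counts in all 22 libraries, so the genotype labels could not be checked by it. Ductal markers as a sum were high in lines (8 genes, summed 7416 to 14464 CPM, counts scaled to library size) and in tumors (4051 to 14163). Of these 8, Epcam was at 4.97 to 86.4 CPM in lines and at 248 to 1155 CPM in tumors. Fibroblast markers (8 genes) summed to 2.16 to 14.0 CPM in lines, with Dcn and Lum at 0 in all 10, and to 1870 to 12394 CPM in tumors. Macrophage markers (8 genes) summed to 154 to 290.4 CPM in lines, with Adgre1, C1qa, C1qb and Lyz2 at 0, and to 827 to 3484 CPM in tumors. Skeletal muscle markers (12 genes) reached 1599 CPM in WT tumor 3 and at most 73.1 CPM in any other tumor. In bulk RNA, fewer cells of a type and less RNA per cell cannot be told apart. CPM are scaled to library total and TMM factor (a trimmed mean that sets the library's scale) throughout, unless another scale is named.

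The genes spanned a wide range of levels. Per kilobase of transcript, as a mean over the 4 groups, Atp5b (the catalytic β subunit of ATP synthase) had the highest level at 532 CPM per kilobase, followed in complex V by Atp5g3 (a subunit of the membrane c ring) at 302. In complex IV the highest were Cox4i1 (a regulatory subunit) at 440.1 and Ndufa4 (first assigned to complex I, now known as a complex IV subunit) at 313 CPM per kilobase. Uqcrh (the hinge protein) at 269.9 and Uqcr10 (a small accessory subunit) at 143 CPM per kilobase led complex III. Complex I was led by the accessory subunits Ndufa6 at 175 and Ndufa7 at 160.1 CPM per kilobase. Complex II was led by Sdhd (a membrane anchor) at 109 and Sdha (the flavoprotein) at 71.7 CPM per kilobase. The lowest tested gene of each complex was Ndufb4 at 4.66, Sdhc at 58.6, Uqcrc2 at 58.7, Cox4i2 at 0.579 and Atp5s at 6.46 CPM per kilobase. These levels are over the median annotated coding transcript, and Ndufb4 shares 17.2% of its 75-base windows with the pseudogene Ndufb4c, so its level is uncertain.

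Summed over all 84 genes, WT lines held the most RNA of the set and KO tumors the least. The sum was 9253, 9067, 9509.9, 11702 and 11246 CPM in WT lines 1 to 5 and 9057, 8213, 7759.7, 9092 and 9302 CPM in KO lines 1 to 5. It was 7116, 6665, 7666 and 7287 CPM in WT tumors 1 to 4, and 6044 to 7017 CPM, with a median of 6694, in the 8 KO tumors. With TMM factors every line stood above every tumor, although KO line 3 exceeded WT tumor 3 by little. WT lines 4 and 5 stood apart above the other lines. As means ± SD the 4 groups were 10156 ± 1225 CPM (n = 5), 8685 ± 664 (n = 5), 7183 ± 415 (n = 4) and 6589.6 ± 367 (n = 8) in that order. Scaled to library totals alone, lines and tumors overlapped, with KO line 3 at 7397 CPM and WT tumor 3 at 7977 CPM.

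Complex V held the largest summed CPM of the 5 complexes in every group and also the widest difference between materials. Its sum was 4715 ± 793 CPM in WT lines, 3647 ± 390 in KO lines, 2814 ± 261 in WT tumors and 2437 ± 173 in KO tumors (mean ± SD). The ratio of tumor to line means was 0.597 in WT and 0.668 in KO for complex V, and 0.63 and 0.773 for complex II. For complexes I, III and IV the ratios were nearer to 1, at 0.807, 0.849 and 0.843 in WT and 0.826, 0.87 and 0.818 in KO. Scaled to library totals alone, the KO ratio of complex III was 1.01, so its direction rests on the scaling, while the other 9 ratios were below 1 under both. The catalytic pair Atp5a1 and Atp5b made up 74.2% of the complex V difference in WT and 62.3% in KO. The other 15 complex V genes together still had ratios of 0.747 and 0.739.

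**Figure D1:**
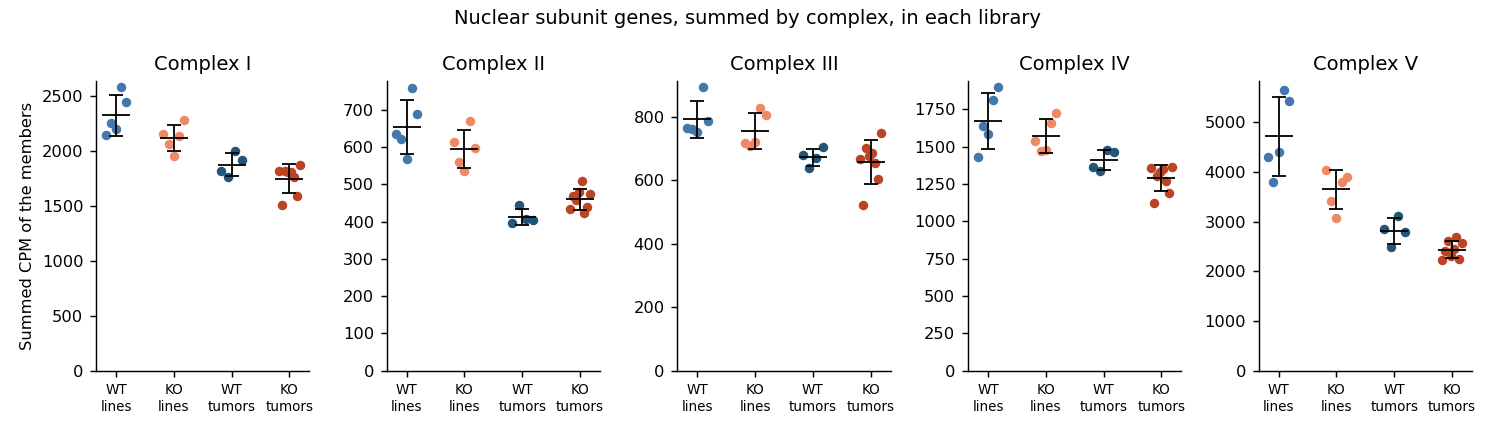
Summed CPM (TMM-scaled) of the genes of each complex in the 4 groups. Each point is 1 library, and the horizontal line with its error bar is the group mean with its SD. Complex V goes from a mean of 4715 CPM in WT lines to 2437 CPM in KO tumors, and WT lines 4 and 5 are its highest points.

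Between WT tumors and WT lines, more of the genes were lower in tumors than higher. Of 80 tested, 27 fell and 4 rose at an adjusted p under 0.05 (edgeR quasi-likelihood test, Benjamini-Hochberg over 18662 genes), where 18.5% of all genes tested fell and 28.0% rose. A negative log2 fold change was found for 58 of the 80, where 44.5% of all genes had one. In 17 genes every WT tumor was below every WT line (11.1% of all genes), and in 3 every WT tumor was above (20.7% of all genes). The median log2 fold change of the 80 was -0.23, beside 0.13 for all genes tested.

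KO tumors and KO lines gave the same order of counts. Of 80 genes, 34 fell and 7 rose, where 22.9% of all genes fell and 34.2% rose. The log2 fold change was negative for 57 of the 80 (43.7% of all genes), with a median of -0.29 beside 0.17 for all genes. Every KO tumor was below every KO line for 17 genes (13.1% of all genes) and above for 3 (20.5% of all genes). The WT and KO contrasts share no library but come from the same fit. Of the 80 genes, 22 fell in both, 4 rose in both (Cox4i2, Cox6b2, Cox6c and Ndufa6) and none was called in opposite directions. A further 5 fell in WT and 12 fell in KO without a call in the other genotype, 3 rose in KO alone by call (Atp5l, Uqcrb and Uqcrh), and 34 were called in neither. The same overlaps over all genes are not given here, so these counts do not set the genes apart. A call in 1 genotype does not show a difference between genotypes, and the test of that difference is the interaction of genotype and material.

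By complex, the counts fallen and risen in WT were 11 and 1 of 36 in complex I, 4 and 0 of 4 in complex II, 2 and 0 of 8 in complex III, 4 and 3 of 15 in complex IV, and 6 and 0 of 17 in complex V. In KO they were 12 and 1, 3 and 0, 3 and 2, 5 and 3, and 11 and 1 in the same order. Of all genes tested, 18.5% fell and 28.0% rose in WT, and 22.9% fell and 34.2% rose in KO. Counts in complexes of few genes do not set those complexes apart from these shares. The median log2 fold change of complexes I to V was -0.23, -0.64, -0.12, -0.19 and -0.37 in WT and -0.20, -0.44, -0.27, -0.27 and -0.45 in KO.

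How far the counts lean to lower values depended on the scaling. With RLE factors 23 fell and 5 rose in WT (15.6% and 29.9% of all genes) and 23 fell and 10 rose in KO (18.7% and 37.2% of all genes). With upper quartile factors the counts were 23 and 7 in WT (14.6% and 30.6%) and 22 and 11 in KO (17.7% and 37.9%). With library totals alone they were 20 and 7 in WT (12.9% and 31.6%) and 14 and 14 in KO (14.8% and 40.4%). The median of all genes tested moved with the scaling from 0.13 to 0.28 in WT and from 0.17 to 0.38 in KO. The median of the 80 genes minus the median of all genes ranged from -0.36 to -0.35 in WT and from -0.46 to -0.45 in KO over the 4 scalings. Under all 4 scalings, 20 genes fell in WT and 14 in KO, 12 of them in both, among them Atp5b, Atp5c1, Atp5g3, Atp5o, Ndufa10, Ndufa9, Ndufs1, Ndufs8, Ndufv1, Sdhc and Uqcrc1. The same 4 genes rose in both genotypes under all 4. Shares of all genes over the 4 scalings together are not given here. In edgeR with a block for the animal, in the 5 animals that gave both materials, 24 fell and 4 rose in WT (16.9% and 22.8% of all genes) and 13 fell and 1 rose in KO (7.58% and 12.8%), where 2 animals enter. Of the genes described with values, Ndufa6 (log2 0.46, adjusted p = 0.14), Cox6c (0.31, adjusted p = 0.15), Cox5a (-0.56, adjusted p = 0.068), Cox8a (-0.35, adjusted p = 0.11) and Cox7a2 (-0.48, adjusted p = 0.053) lost their WT calls under that block. In KO the falls of Ndufs1 (-0.55), Sdhb (-0.63), Sdhd (-0.34), Uqcrfs1 (-0.49), Uqcrc2 (-0.58), Cox7b (-0.39), Cox7a2 (-0.57), Cox8a (-0.52), Cox6b1 (-0.47), Atp5a1 (-0.55), Atp5f1 (-0.47), Atp5g1 (-0.86) and Atp5g3 (-0.72) did not pass under the block (adjusted p from 0.057 to 0.30). The same held for the KO rises of Ndufa6 (0.03), Uqcrb (0.35), Uqcrh (0.05), Cox6c (0.33), Atp5l (0.41) and Cox4i2 (3.44), with adjusted p from 0.11 to 0.95. With limma-voom and the animal as a block over all 22 libraries the counts were 29 and 4 in WT (21.1% and 31.8% of all genes) and 38 and 7 in KO (24.5% and 35.1%).

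**Figure D2:**
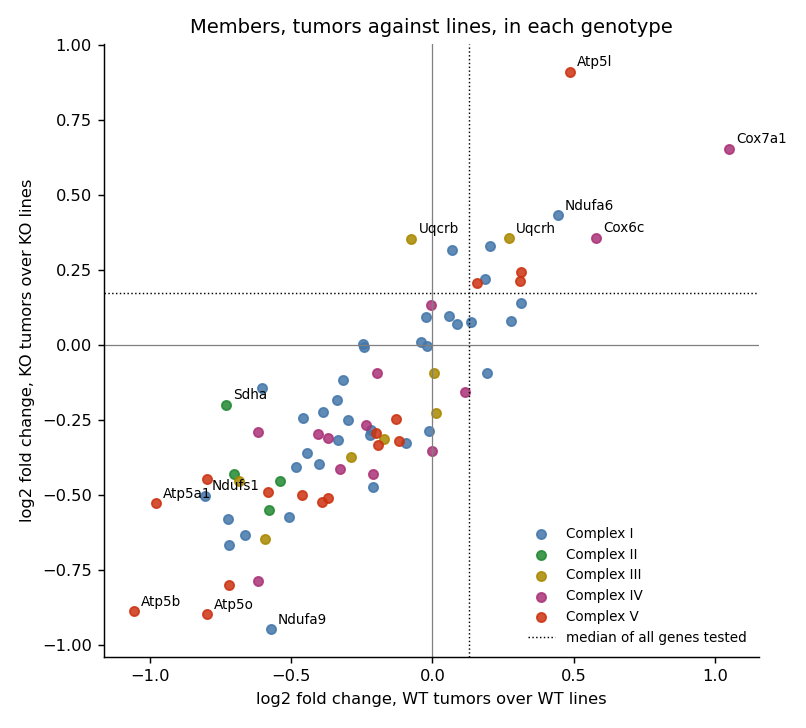
Log2 fold change of tumors over lines of each tested gene, WT on the horizontal axis and KO on the vertical axis, coloured by complex. The dotted lines are the medians of all genes tested, 0.13 in WT and 0.17 in KO, and Cox4i2 and Cox6b2 are left out for scale. Most genes lie below 0 on both axes, with Atp5b at -1.06 in WT and Ndufa9 at -0.95 in KO.

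In complex V, the catalytic pair Atp5a1 and Atp5b was lower in tumors. Atp5b measured 1374, 1122, 1453, 2037 and 1964 CPM in WT lines 1 to 5, and 844, 656, 805 and 751 CPM in WT tumors 1 to 4. For KO, Atp5b stood at 1227, 967, 930.4, 1222 and 1249 CPM in lines 1 to 5 and at 488 at the lowest, 606 at the median and 764 at the highest in the 8 tumors. Neither genotype had a tumor that reached the level of any of its lines. Atp5b fell by 1.06 ± 0.17 (log2 ± SE, adjusted p = 6.1e-05, edgeR quasi-likelihood) in WT and by 0.89 ± 0.14 in KO (adjusted p = 2.5e-05). Atp5b lies at chr10:128083273-128090391 on the forward strand of mm10. Atp5a1 measured 1072, 822, 1203, 1541 and 1276 CPM in WT lines 1 to 5, and 612, 524, 779 and 482 CPM in WT tumors 1 to 4. Atp5a1 in KO lines 1 to 5 came to 935, 694, 605, 792 and 863 CPM, and in the 8 KO tumors to 427 at the lowest, 543 at the median and 685 at the highest. The α subunit Atp5a1 pairs with Atp5b in the head, and its WT groups did not overlap, while its highest KO tumors reached the range of the KO lines. Its change on the log2 scale was -0.98 ± 0.18 in WT (adjusted p = 0.00025) and -0.53 ± 0.15 in KO (adjusted p = 0.0055). In KO its value was -0.32 (adjusted p = 0.068) with library totals alone.

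Atp5o measured 155, 178, 158, 169.8 and 214 CPM in WT lines 1 to 5, and 80.0, 111, 110.1 and 102 CPM in WT tumors 1 to 4. With microRNA-21 absent, Atp5o was at 179, 173, 152, 186 and 167 CPM in lines 1 to 5, and at 75.6 at the lowest, 89.3 at the median and 112 at the highest in the 8 tumors. Atp5o encodes the subunit that ties the head to the peripheral stalk, and all tumors were below all lines. It fell by 0.80 ± 0.13 in WT (adjusted p = 8.2e-05) and by 0.90 ± 0.11 in KO (adjusted p = 1.4e-06). Atp5c1 measured 287, 267, 314, 303 and 339 CPM in WT lines 1 to 5, and 206, 143, 167 and 216 CPM in WT tumors 1 to 4. KO lines 1 to 5 had 266, 292, 241, 293 and 304 CPM of Atp5c1, and the 8 KO tumors 141 at the lowest, 157 at the median and 183 at the highest. Atp5c1, the γ subunit that turns within the head, also had no tumor in the range of the lines of its genotype. Its log2 fold change was -0.72 ± 0.12 (adjusted p = 0.00011) and -0.80 ± 0.10 (adjusted p = 2.4e-06). Atp5f1, the b subunit of the peripheral stalk, fell by 0.80 in WT (adjusted p = 0.00026) and by 0.45 in KO (adjusted p = 0.0045). The KO call of Atp5f1 was lost with library totals alone (-0.24, adjusted p = 0.096). Of the c-ring genes, Atp5g3 fell in both genotypes (log2 -0.58, adjusted p = 0.00061, and -0.49, adjusted p = 0.00034). Atp5g1 and Atp5g2 fell in KO (log2 -0.51, adjusted p = 0.015, and -0.50, adjusted p = 0.037), calls lost with upper quartile factors (adjusted p = 0.056 and 0.11) and library totals alone (adjusted p = 0.14 and 0.22), and for Atp5g2 with RLE factors too (adjusted p = 0.10). Atp5g2 shares 35.8% of its 75-base windows with the pseudogene Gm10175, the largest share among the 84 genes, so its counts are uncertain. The shares were 7.21% for Atp5g1 and 5.53% for Atp5f1, with pseudogenes, and 10.4% for Atp5o, with a second gene entry of that name. Atp5f1 also shares 337 exon bases with Wdr77 on the opposite strand, and the strand setting of the counting is not given.

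The small complex V subunits did not move together. Atp5l, Atp5e and Atp5mpl had positive values, unlike Atp5a1, Atp5b and Atp5c1. Atp5j and Atp5j2, also small, fell in KO by calls that varied with the scaling, and were not called in WT. Atp5l measured 4.49, 6.40, 4.83, 5.93 and 8.38 CPM in WT lines 1 to 5, and 7.46, 12.8, 6.22 and 7.20 CPM in WT tumors 1 to 4. For KO, Atp5l stood at 6.21, 5.99, 4.06, 3.38 and 4.29 CPM in lines 1 to 5 and at 6.33 at the lowest, 9.38 at the median and 11.1 at the highest in the 8 tumors. Atp5l, the g subunit, was higher in every KO tumor than in every KO line, while the WT groups overlapped. It rose by 0.91 ± 0.23 in KO (adjusted p = 0.0024), and its WT log2 fold change of 0.49 ± 0.26 did not pass (adjusted p = 0.13). Atp5l shares 4.91% of its sequence windows with the processed pseudogene Gm10221, so its counts, and with them its rise, are uncertain. The values of the ε subunit Atp5e and the small protein Atp5mpl did not pass in WT (log2 0.31 and 0.31) or in KO (0.21 and 0.24). Both passed in KO with library totals alone (Atp5mpl 0.45, adjusted p = 0.0089, and Atp5e 0.42, adjusted p = 0.038), and Atp5mpl in WT too (0.47, adjusted p = 0.021).

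In complex I, Ndufs1, Ndufv1 and Ndufs8, which carry electrons in the matrix arm, were among those lower in tumors. Not all such subunits were called in both genotypes. Ndufs7 was called in neither, and Ndufv2 fell by call in WT alone, where the call varied with the scaling. Ndufs1 measured 129, 98.5, 121, 114 and 109 CPM in WT lines 1 to 5, and 62.7, 63.9, 66.6 and 68.1 CPM in WT tumors 1 to 4. Ndufs1 in KO lines 1 to 5 came to 118, 103, 95.3, 86.5 and 92.8 CPM, and in the 8 KO tumors to 61.7 at the lowest, 70.3 at the median and 79.4 at the highest. Ndufs1, the largest iron-sulphur subunit, had a narrow range in tumors, entirely below the lines. It fell by 0.81 ± 0.11 in WT (adjusted p = 8.2e-06) and by 0.50 ± 0.09 in KO (adjusted p = 9.4e-05). Ndufv1 measured 124, 153, 138, 191 and 151 CPM in WT lines 1 to 5, and 77.0, 82.6, 117 and 89.9 CPM in WT tumors 1 to 4. With microRNA-21 absent, Ndufv1 was at 120.0, 124, 102, 125 and 146 CPM in lines 1 to 5, and at 68.5 at the lowest, 80.0 at the median and 84.6 at the highest in the 8 tumors. Ndufv1, which binds NADH, had no tumor within the lines of its genotype. Its log2 fold change was -0.72 ± 0.14 in WT (adjusted p = 0.00032) and -0.67 ± 0.11 in KO (adjusted p = 6.4e-05). Ndufs8 measured 71.4, 87.8, 89.1, 112 and 106 CPM in WT lines 1 to 5, and 49.96, 60.6, 65.1 and 50.04 CPM in WT tumors 1 to 4. KO lines 1 to 5 had 72.6, 64.4, 54.5, 62.2 and 78.4 CPM of Ndufs8, and the 8 KO tumors 38.4 at the lowest, 43.4 at the median and 52.2 at the highest. For Ndufs8, an iron-sulphur subunit near the ubiquinone site, tumors and lines of each genotype were again apart. Ndufs8 fell by 0.72 ± 0.14 in WT (adjusted p = 0.00041) and by 0.58 ± 0.12 in KO (adjusted p = 0.00034).

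Ndufa9 measured 92.6, 129, 96.5, 139 and 119 CPM in WT lines 1 to 5, and 59.6, 70.6, 83.9 and 95.7 CPM in WT tumors 1 to 4. For KO, Ndufa9 stood at 105, 125, 118, 111 and 125 CPM in lines 1 to 5 and at 50.05 at the lowest, 60.4 at the median and 76.1 at the highest in the 8 tumors. Ndufa9, an accessory subunit where the matrix arm meets the membrane arm, overlapped in WT only through the highest WT tumor and the lowest WT line. It fell by 0.57 ± 0.15 in WT (adjusted p = 0.0049) and by 0.95 ± 0.13 in KO (adjusted p = 4.7e-06), the lowest value of the 80 genes in KO. Ndufa10, an accessory subunit, fell by 0.67 in WT (adjusted p = 0.0011) and by 0.63 in KO (adjusted p = 0.00021). Ndufa6 measured 43.2, 58.0, 68.2, 60.0 and 55.1 CPM in WT lines 1 to 5, and 71.8, 66.2, 94.7 and 76.8 CPM in WT tumors 1 to 4. Ndufa6 in KO lines 1 to 5 came to 63.9, 53.7, 55.4, 62.7 and 49.3 CPM, and in the 8 KO tumors to 47.2 at the lowest, 75.3 at the median and 108 at the highest. Ndufa6, a small accessory subunit, was the one complex I gene that rose, with overlap between tumors and lines in both genotypes. Its log2 fold change was 0.44 ± 0.17 in WT (adjusted p = 0.041) and 0.43 ± 0.15 in KO (adjusted p = 0.019). The WT call was lost without WT tumor 3 (0.33, adjusted p = 0.15) and under 12 other alternatives, and the KO call without KO tumor 4 (0.31, adjusted p = 0.058), without KO line 5 (0.39, adjusted p = 0.05) and under 3 others.

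All 4 genes of complex II had negative values in both genotypes, except that Sdha in KO stood at 0.01 with library totals alone. Sdha measured 285, 225, 264, 339.9 and 208 CPM in WT lines 1 to 5, and 150.5, 151, 184 and 152 CPM in WT tumors 1 to 4. With microRNA-21 absent, Sdha was at 227, 242, 178, 232 and 212 CPM in lines 1 to 5, and at 172 at the lowest, 190.3 at the median and 213 at the highest in the 8 tumors. Sdha, which oxidises succinate, was lower in every WT tumor than in every WT line, whereas the KO groups overlapped. It fell by 0.73 ± 0.13 in WT (adjusted p = 0.00017), and in KO the log2 fold change of -0.20 ± 0.11 did not pass (adjusted p = 0.12). Sdhc measured 127, 134, 119, 159 and 167 CPM in WT lines 1 to 5, and 91.3, 82.3, 98.1 and 106 CPM in WT tumors 1 to 4. KO lines 1 to 5 had 153, 116, 135, 132 and 150.3 CPM of Sdhc, and the 8 KO tumors 84.4 at the lowest, 91.7 at the median and 109 at the highest. Sdhc, a membrane anchor, had tumors below lines throughout. It fell by 0.58 ± 0.12 in WT (adjusted p = 0.0006) and by 0.55 ± 0.10 in KO (adjusted p = 0.0001). Sdhb, the iron-sulphur subunit, fell by 0.54 in WT (adjusted p = 0.0018) and by 0.46 in KO (adjusted p = 0.0011). The KO call of Sdhb was lost with library totals alone (-0.24, adjusted p = 0.052). Sdhd, the other anchor, fell by 0.70 in WT (adjusted p = 0.009) and by 0.43 in KO (adjusted p = 0.038). The KO call of Sdhd was lost under each of the 3 other scalings (-0.32 to -0.21, adjusted p from 0.12 to 0.29). Without KO line 4, its highest KO line, the KO value of Sdhd was -0.25 and did not pass.

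In complex III, Uqcrfs1 and Uqcrc1 fell in both genotypes, Uqcrc2 fell in KO, and the 2 genes that rose were small subunits in KO. Uqcrfs1 measured 128, 127, 128, 170.0 and 160.1 CPM in WT lines 1 to 5, and 100.4, 68.0, 113 and 73.0 CPM in WT tumors 1 to 4. For KO, Uqcrfs1 stood at 99.9, 115, 127, 122 and 134 CPM in lines 1 to 5 and at 80.4 at the lowest, 86.4 at the median and 97.9 at the highest in the 8 tumors. Uqcrfs1, the Rieske iron-sulphur protein, was lower in every tumor than in every line of its genotype. It fell by 0.69 ± 0.14 in WT (adjusted p = 0.00063) and by 0.45 ± 0.12 in KO (adjusted p = 0.0028). The KO value of Uqcrfs1 was -0.24 and did not pass with library totals alone (adjusted p = 0.077). Uqcrc1 measured 163, 161, 130.4, 226 and 139.9 CPM in WT lines 1 to 5, and 117, 88.0, 111 and 119 CPM in WT tumors 1 to 4. Uqcrc1 in KO lines 1 to 5 came to 156, 134, 155, 195 and 192 CPM, and in the 8 KO tumors to 82.0 at the lowest, 104 at the median and 126 at the highest. Uqcrc1, a core protein, showed the same separation. Its log2 fold change was -0.59 ± 0.16 in WT (adjusted p = 0.0061) and -0.65 ± 0.14 in KO (adjusted p = 0.00048). Uqcrb measured 58.1, 45.3, 46.6, 57.7 and 49.1 CPM in WT lines 1 to 5, and 47.5, 47.2, 58.6 and 41.8 CPM in WT tumors 1 to 4. With microRNA-21 absent, Uqcrb was at 43.9, 52.8, 35.4, 45.2 and 45.1 CPM in lines 1 to 5, and at 51.8 at the lowest, 55.6 at the median and 63.3 at the highest in the 8 tumors. Uqcrb, which takes part in ubiquinone binding, overlapped between materials in WT, and in KO all tumors but the lowest were above every line. It rose by 0.35 ± 0.11 in KO (adjusted p = 0.0078), and its WT value of -0.07 ± 0.12 did not pass (adjusted p = 0.65) and changed sign with the scaling. Uqcrb shares 16.7% of its 75-base windows with a processed pseudogene, so its counts are uncertain. Uqcrc2, the other core protein, fell by 0.37 in KO (adjusted p = 0.041), a call lost under each of the 3 other scalings (adjusted p from 0.14 to 0.38). Uqcrh rose in KO by 0.36 (adjusted p = 0.02), a call lost without WT tumor 4, KO tumor 4 and KO tumor 8 together (0.25, adjusted p = 0.09), in which acinar markers summed to 531, 2818 and 1245 CPM. The WT value of Uqcrh was 0.27 (adjusted p = 0.13). It passed with upper quartile factors (0.37, adjusted p = 0.037) and library totals alone (0.42, adjusted p = 0.025).

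In complex IV the genes moved in both directions. Cox6c measured 72.7, 90.1, 81.8, 78.2 and 72.0 CPM in WT lines 1 to 5, and 94.7, 107, 112 and 158 CPM in WT tumors 1 to 4. KO lines 1 to 5 had 71.4, 75.3, 73.7, 63.0 and 55.8 CPM of Cox6c, and the 8 KO tumors 71.3 at the lowest, 88.2 at the median and 100.5 at the highest. Cox6c, a small regulatory subunit, was higher in every WT tumor than in every WT line, and the KO groups overlapped. It rose by 0.58 ± 0.14 in WT (adjusted p = 0.0022) and by 0.36 ± 0.12 in KO (adjusted p = 0.015). Cox6c shares 250 exon bases with Vps13b on the opposite strand, and the strand setting of the counting is not given, so reads of the pair cannot be told apart there. Ndufa4 measured 153, 199, 181, 192 and 172 CPM in WT lines 1 to 5, and 71.0, 124, 126 and 146 CPM in WT tumors 1 to 4. For KO, Ndufa4 stood at 152, 199, 182, 156 and 197 CPM in lines 1 to 5 and at 57.1 at the lowest, 108 at the median and 119 at the highest in the 8 tumors. Ndufa4 was lower in every tumor than in every line of its genotype. It fell by 0.62 ± 0.20 in WT (adjusted p = 0.014) and by 0.79 ± 0.16 in KO (adjusted p = 0.00039). Without WT tumor 1, its lowest WT tumor, the WT value was -0.44 (adjusted p = 0.056). It was -0.46 with library totals alone (adjusted p = 0.061). Cox5a, a regulatory subunit, fell in WT (log2 -0.62, adjusted p = 0.0079) and did not pass in KO (-0.29, adjusted p = 0.098). Cox4i1 did not pass in either (log2 -0.41, adjusted p = 0.063, and -0.30, adjusted p = 0.091). Cox7b fell in KO by 0.43 (adjusted p = 0.0031). That call was lost with library totals alone (-0.22, adjusted p = 0.12). Among the other small subunits, Cox7a2 fell by 0.33 in WT (adjusted p = 0.037) and by 0.41 in KO (adjusted p = 0.0024). Cox8a fell by 0.37 in WT (adjusted p = 0.031) and by 0.31 in KO (adjusted p = 0.026). Cox6b1 fell in KO by 0.35 (adjusted p = 0.018) and had a WT value near 0 that changed sign with the scaling. None of these 5 calls passed with library totals alone (adjusted p from 0.091 to 0.49), and all but that of Cox7a2 in KO were also lost with RLE and upper quartile factors.

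Within animals the order was similar. Of 79 genes with enough counts, 41 were lower in the tumor than in the line of the same animal in all 5 animals, and 3 in none, beside 27.0% and 29.2% of 14563 genes with a mean of at least 1 CPM. The genes lower in the tumor numbered 55, 60 and 54 of 79 in the 3 WT animals and 70 and 57 in the 2 KO animals, where 48.5% to 49.98% of all those genes were lower. All 4 complex II genes and 11 of the 17 complex V genes, Atp5a1 and Atp5b among them, were lower in all 5.

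Tumor minus line values ran with transcript length among these genes. Spearman's rank correlation between log2 fold change and annotated transcript length was -0.59 in WT and -0.51 in KO over 80 genes, and -0.08 and -0.06 over 15127 genes tested, as a description across genes that share libraries. The rank correlation with mean level was -0.58 in both genotypes over the 80 genes, and -0.43 and -0.51 over all, so length and level ran with the values together. Of 22 genes with transcripts of 1200 bases or more, 15 fell and 0 rose in WT, and 15 fell and 0 rose in KO. Of all genes of that length, 22.3% fell and 26.2% rose in WT, and 26.6% fell and 31.3% rose in KO. In the length class from 700 to under 1200 bases, 8 of 23 fell and 1 rose in WT, and 13 fell and 1 rose in KO, beside 17.5% and 29.2% of all genes of that length in WT and 23.5% and 32.9% in KO. Below 700 bases, 4 of 35 fell and 3 rose in WT, and 6 fell and 6 rose in KO, beside 12% and 28.5% of all such genes in WT and 20% and 33.9% in KO. The class limits were chosen after the values were seen. The long class holds Atp5b, Atp5a1, Ndufs1, Ndufv1, Ndufa9, Sdha, Sdhc, Sdhd and the large subunits of complex III, and the short class holds many small accessory subunits. The parts of transcript length, RNA quality and level in these differences were not tested.

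**Figure D3:**
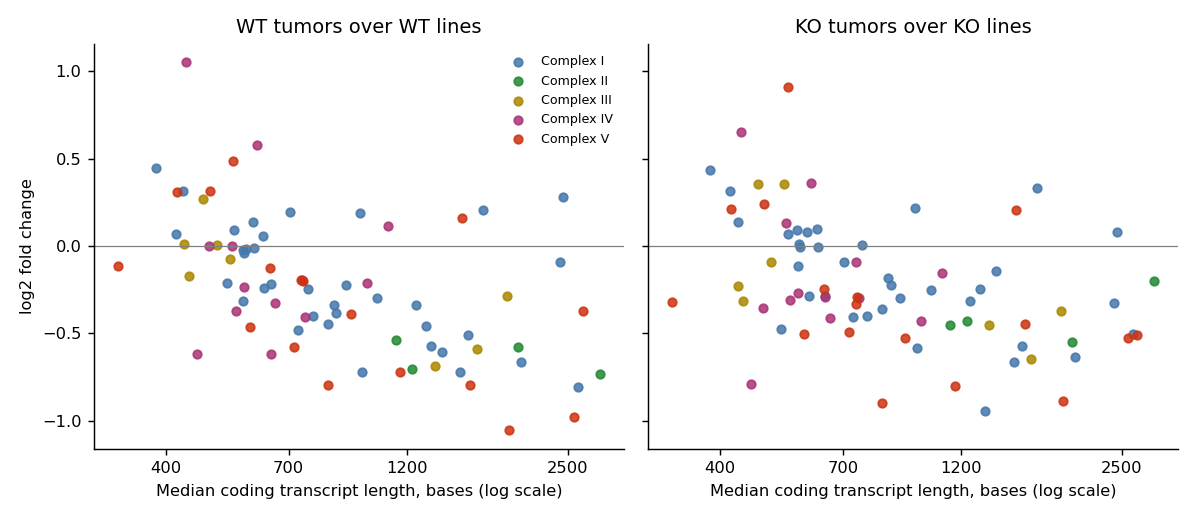
Log2 fold change of tumors over lines of each tested gene against its median coding transcript length in bases (log axis), WT on the left and KO on the right, coloured by complex, with Cox4i2 and Cox6b2 left out for scale. Genes of 1200 bases or more lie mostly below 0, with 15 of 22 fallen in each genotype, and those under 700 bases lie on both sides of 0.

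Promoter windows were read to see what sequence the genes share, since many moved together between materials. RefSeq windows on GRCm38.p6, from 250 bases before to 50 after the start, matched 67 of the 84 genes. The motifs searched on both strands were the NRF1 core GCGCATGCG, the ETS core CCGGAAG and the YY1 core AAGATGGCG, factors known to act on many genes of this pathway. At least 1 of the 3 was found in 26 of 67 windows (38.8%), beside 16.6% of the windows of 17492 protein-coding genes. The NRF1 core was in 8 (11.9%, beside 2.61%), the ETS core in 16 (23.9%, beside 12.9%) and the YY1 core in 7 (10.4%, beside 2.14%). Among genes with a window, 4 of 22 that fell in WT and 12 of 41 without a call held the ETS core, and 2 and 6 held the NRF1 core. The YY1 core was in 1 of those 22 and 6 of those 41. In KO, the ETS core was in 6 of 28 that fell and 8 of 33 without a call, the NRF1 core in 2 and 5, and the YY1 core in 4 and 3. Of the genes with a window that rose, 2 in WT held none of the motifs, and of 4 in KO, 2 held the ETS core and 1 the NRF1 core. A match describes letters and is not a binding site. No test of these shares was run.

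Of the windows, 3 are shown for genes that fell in both genotypes under all 4 scalings, 1 for each motif, with Ndufa6, which rose in both by call and held none of the 3 motifs. Each is printed 5′ to 3′ on the gene's strand, with the match in capitals. The windows are chr6:126849095-126849394 (reverse strand) for Ndufa9 with the YY1 core, chr19:3912725-3913024 (reverse strand) for Ndufs8 with the ETS core as its reverse complement, chr9:108936398-108936697 (forward strand) for Uqcrc1 with the NRF1 core matched on both strands in overlap, and chr15:82354242-82354541 (reverse strand) for Ndufa6. No match in the Ndufa6 window says only that these letters are not in it.
Ndufa9: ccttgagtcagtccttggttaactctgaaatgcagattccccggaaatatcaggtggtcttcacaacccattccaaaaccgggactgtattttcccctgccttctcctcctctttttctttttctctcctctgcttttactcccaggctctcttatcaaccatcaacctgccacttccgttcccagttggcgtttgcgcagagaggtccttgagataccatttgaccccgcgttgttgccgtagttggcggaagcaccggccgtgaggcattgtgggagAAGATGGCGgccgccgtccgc
Ndufs8: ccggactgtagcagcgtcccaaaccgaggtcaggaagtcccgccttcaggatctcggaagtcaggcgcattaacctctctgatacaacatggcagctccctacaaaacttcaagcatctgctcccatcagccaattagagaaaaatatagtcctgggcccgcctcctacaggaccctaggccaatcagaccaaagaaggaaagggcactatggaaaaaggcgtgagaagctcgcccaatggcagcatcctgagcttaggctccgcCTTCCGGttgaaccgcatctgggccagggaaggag
Uqcrc1: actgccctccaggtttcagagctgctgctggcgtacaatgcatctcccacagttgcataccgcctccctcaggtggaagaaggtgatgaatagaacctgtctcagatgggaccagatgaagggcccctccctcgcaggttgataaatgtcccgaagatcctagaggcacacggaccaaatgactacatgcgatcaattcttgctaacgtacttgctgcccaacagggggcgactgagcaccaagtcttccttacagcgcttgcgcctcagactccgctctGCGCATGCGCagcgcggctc
Ndufa6: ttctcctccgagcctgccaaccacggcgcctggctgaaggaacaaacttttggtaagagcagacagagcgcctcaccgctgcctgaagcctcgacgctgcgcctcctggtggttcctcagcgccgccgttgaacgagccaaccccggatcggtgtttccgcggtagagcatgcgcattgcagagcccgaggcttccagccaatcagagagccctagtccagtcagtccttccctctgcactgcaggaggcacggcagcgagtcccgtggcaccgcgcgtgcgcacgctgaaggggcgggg

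The comparison of genotypes, which the labels name as the main one, gave smaller differences. In lines, 0 of 78 genes tested rose and 0 fell between KO and WT (edgeR quasi-likelihood, adjusted p under 0.05), where 0.0143% of 14020 genes rose and 0% fell. By DESeq2 the counts were also 0 and 0, where 0.250% of all genes rose and 0.0785% fell, and by limma-voom 0 and 0. Before adjustment, 8 genes were lower and 0 higher with p under 0.05, beside 3.59% and 3.40% of all genes. A negative log2 fold change was found for 60 of the 78 (53.7% of all genes), with a median of -0.11 beside -0.03 for all genes. The smallest adjusted p was 0.71.

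In 3 genes every KO line was below every WT line (0.521% of all genes): Ndufb8, Ndufb5 and Atp5g3. Ndufb8, an accessory subunit of the complex I membrane arm, measured 63.0, 53.9, 50, 57.1 and 65.3 CPM in KO lines 1 to 5 and 67.0, 68.4, 80.0, 122 and 83.5 CPM in WT lines 1 to 5. WT line 4 was its highest by far, and the groups were apart by a small margin. The log2 fold change of Ndufb8 was -0.54 ± 0.17 (unadjusted p = 0.0091, adjusted p = 0.71). Ndufb5, of the same arm, had -0.41 ± 0.13 (adjusted p = 0.71) and Atp5g3 -0.25 ± 0.10 (adjusted p = 0.71). Ndufb5 shares 616 exon bases with Mrpl47 on the opposite strand, and the strand setting of the counting is not given, so its counts are uncertain. The smallest unadjusted p in lines belonged to Atp5a1, at -0.60 ± 0.18 (unadjusted p = 0.0057, adjusted p = 0.71), the lowest value of the 78. Ndufs8 had -0.49 ± 0.15 (adjusted p = 0.71) and Atp5b -0.51 ± 0.18 (adjusted p = 0.71). The summed CPM of complex V had a KO to WT ratio of 0.774 in lines, with 82.1% of the difference in Atp5a1 and Atp5b and a ratio of 0.901 for the other 15 genes. For complexes I to IV the ratios were 0.911, 0.909, 0.955 and 0.94.

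The other genes named by smallest p in lines were Sdha (-0.28 ± 0.15, adjusted p = 0.72), Sdhd (-0.10 ± 0.20, adjusted p = 0.92), Uqcrfs1 (-0.25 ± 0.13, adjusted p = 0.72) and Cox8a (-0.37 ± 0.16, adjusted p = 0.71). Positive values were found for Uqcrh (0.23 ± 0.12, adjusted p = 0.72) and for Cox7a2l (0.38 ± 0.20, adjusted p = 0.72), a protein of supercomplex assembly with the highest value of the 78. None passed, and Cox7a2l shares 10.4% of its 75-base windows with a processed pseudogene.

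In tumors, 0 of 80 genes rose and 0 fell between KO and WT by edgeR, where 0.0110% of 18125 genes rose and 0% fell. With p under 0.05 before adjustment, 13 genes were lower and 1 higher, beside 8.39% and 8.34% of all genes. Those counts were 8 and 4 with upper quartile factors (6.16% and 9.95% of all genes) and 5 and 4 with library totals alone (4.98% and 11.2%). A negative log2 fold change was found for 60 of the 80 (49.0% of all genes), with a median of -0.16 beside 0.01 for all genes. With library totals alone 50 were negative and the median was -0.07, beside 0.10 for all genes. DESeq2 gave 1 higher, Cox6b2, and 5 lower, beside 3.03% and 1.84% of all genes, and limma-voom gave 0 and 0. The 5 were Cox8a (adjusted p = 0.0068 by DESeq2), Ndufb9 (0.027), Cox6c (0.037), Ndufs8 (0.041) and Uqcr11 (0.046). Their edgeR adjusted p lay between 0.15 and 0.19, so these calls rest on the tool.

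Ndufb9, an accessory subunit of the complex I membrane arm, was the one gene with every KO tumor below every WT tumor (0.789% of all genes). It measured 42.1, 42.4, 52.9 and 72.3 CPM in WT tumors 1 to 4, and 28.1 at the lowest, 36.1 at the median and 41.7 at the highest in the 8 KO tumors. WT tumors 3 and 4 stood above the rest, and the highest KO tumor came close to WT tumors 1 and 2. Its log2 fold change was -0.58 ± 0.16 (unadjusted p = 0.003, edgeR adjusted p = 0.15), and it shares 13.4% of its 75-base windows with the annotated gene Gm49356 on the same strand. Cox8a, a small complex IV subunit, measured 128, 151, 158 and 167 CPM in WT tumors 1 to 4, and 112 at the lowest, 124 at the median and 129 at the highest in KO tumors. WT tumor 1 alone lay within the KO range. The log2 fold change was -0.34 ± 0.10 (unadjusted p = 0.0042, adjusted p = 0.15). Ndufs8 had -0.38 ± 0.12 (adjusted p = 0.18) and Cox6c -0.47 ± 0.14 (adjusted p = 0.15).

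In complex III of tumors, Uqcr11 had -0.34 ± 0.11 (adjusted p = 0.19) and Uqcr10 -0.34 ± 0.14 (adjusted p = 0.24), both small accessory subunits. In complex V the smallest p values belonged to Atp5g1 at -0.52 ± 0.18 (adjusted p = 0.2) and Atp5b at -0.37 ± 0.14 (adjusted p = 0.23). Complex II alone had a positive median (0.12), with Sdha at 0.22 ± 0.11 (adjusted p = 0.33) and Sdhd at 0.15 ± 0.16 (adjusted p = 0.68). The KO to WT ratio of summed CPM in tumors was 1.11 for complex II and 0.933, 0.979, 0.913 and 0.866 for complexes I, III, IV and V. With library totals alone complex III stood at 1.02 and the other 4 kept their side of 1. Without WT tumor 3, the tumor with skeletal muscle RNA, 0 genes were called and the median was -0.09. Without WT tumor 4, KO tumor 4 and KO tumor 8 together, 0 were called and the median was -0.13. KO tumor 5, kept in that fit, had acinar markers at 534 CPM, close to WT tumor 4.

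**Figure D4:**
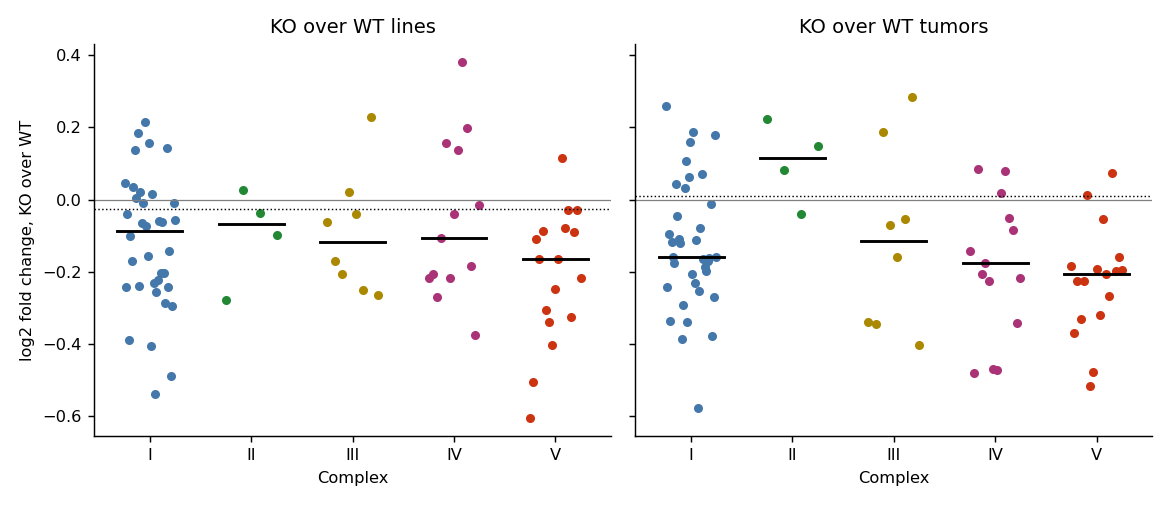
Log2 fold change of KO over WT by complex, lines on the left and tumors on the right. Each point is 1 gene, the bar is the median of the complex, the dotted line is the median of all genes tested (-0.03 in lines, 0.01 in tumors), and Cox6b2 is left out for scale. Most points lie below 0 in both materials, none passed the edgeR test, and 3 of the 4 complex II genes lie above 0 in tumors.

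Lines and tumors of this comparison share no library, although 5 animals gave both. Of 78 genes tested in both, 50 had negative values in both, 9 had positive values in both, and 4 were lower in both at an unadjusted p under 0.05, beside 33.7%, 25.4% and 0.716% of 13818 genes. Those 4 were Cox8a, Ndufs8, Atp5b and Ndufa12, of which Ndufa12 shares 14.55% of its 75-base windows with a processed pseudogene.

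The difference between the genotype effects in tumors and in lines was tested as an interaction over all 22 libraries. By edgeR 0 of 80 genes passed, where 0% of 18662 genes did. At an unadjusted p under 0.05, 4 genes were more positive in tumors and 1 more negative, beside 5.26% and 3.0% of all genes. DESeq2 called 0 of the 80 in either direction, beside 0.263% and 0.0965% of all genes, and limma-voom called 0. The 4 were Sdha (0.53 ± 0.17, unadjusted p = 0.005, adjusted p = 0.45), Ndufb8 (0.46 ± 0.20, adjusted p = 0.56), Uqcrb (0.43 ± 0.16, adjusted p = 0.49) and Ndufs1 (0.30 ± 0.14, adjusted p = 0.59). Of the other genes of smallest p in each complex, Sdhd (0.27 ± 0.27), Uqcr10 (-0.24 ± 0.18), Cox6b1 (-0.35 ± 0.19), Atp5a1 (0.45 ± 0.24) and Atp5f1 (0.35 ± 0.19) did not pass (adjusted p from 0.64 to 0.85). The 1 was Cox4i2 (-3.39 ± 1.23, adjusted p = 0.47), whose lines were at or near 0 counts, so that its fitted value depends on the prior count. Sdha thus had a KO to WT value of -0.28 in lines and 0.22 in tumors, and the difference did not pass.

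MicroRNA-21 lowers mRNAs that pair with its seed, so 3′ UTRs of the genes were searched for the matching letters. The mature RefSeq sequence is shown with its seed (bases 2 to 8) in capitals, followed by the 2 sites found in the longest annotated 3′ UTR of each gene (GENCODE vM21, mm10), with the match in capitals, ATAAGCT or, with a further A, ATAAGCTA.
mmu-miR-21a-5p: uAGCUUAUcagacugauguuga
Ndufv2 site: acttccctacATAAGCTttattcggttt
Atp5g1 site: tgcctaggccATAAGCTAggctgcttcc

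Of the 80 genes tested in tumors, 2 (2.50%) had such a site, beside 8.23% of 14905 genes tested in tumors with an annotated 3′ UTR, and 2 of 78 in lines (2.56%) beside 8.45% of 12255. The genes have short 3′ UTRs, with a median of 268 bases in tumors beside 1308 for all, and 272 beside 1372 in lines. The Ndufv2 site begins at base 56 of 856 and the Atp5g1 site at base 2071 of 4252. Ndufv2, an iron-sulphur subunit of complex I, had 91.9 ± 17.2 CPM in WT lines and 91.4 ± 6.97 in KO lines (mean ± SD, n = 5 each), and 66.8 ± 8.48 in WT tumors (n = 4) and 77.1 ± 10.2 in KO tumors (n = 8), differences that did not pass (edgeR adjusted p = 0.99 and 0.48). Atp5g1 had -0.34 ± 0.19 in lines (adjusted p = 0.72) and -0.52 ± 0.18 in tumors (adjusted p = 0.2).

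Complex IV has subunits with alternative isoforms restricted to certain tissues, and these were low in all libraries, several of them near the floor of detection. Cox4i2, the isoform of Cox4i1 known from lung and low oxygen, had 0 counts in all 5 WT lines and 3, 0, 1, 0 and 0 counts in KO lines 1 to 5. It reached 0.98, 1.21, 0.32 and 1.33 CPM in WT tumors 1 to 4, and 0.335 at the lowest, 0.693 at the median and 1.08 at the highest in KO tumors. All tumors were above all lines, at levels far below Cox4i1. Against a floor of 3 counts per library (0.121 CPM), Cox4i2 was at least 7.96-fold higher in WT tumors (adjusted p = 1.2e-05), and the fitted KO log2 value was 4.35 ± 0.70 (adjusted p = 7e-05), which depends on the prior count. Cox6b2, known from testis, measured 0, 0.0421, 0.241, 0 and 0.173 CPM in WT lines 1 to 5 and 0.109, 0.315, 0.192, 0.401 and 0.0709 CPM in KO lines 1 to 5. It reached 1.19, 2.32, 0.897 and 1.48 CPM in WT tumors 1 to 4, and 1.22 at the lowest, 3.84 at the median and 6.11 at the highest in KO tumors. Tumors were again above all lines, and the median KO tumor exceeded every WT tumor. Cox6b2 rose by 3.97 ± 0.74 in WT (adjusted p = 0.00028) and by 4.23 ± 0.68 in KO (adjusted p = 3.4e-05). Between KO and WT tumors its value was 1.46 ± 0.42 (unadjusted p = 0.0039, edgeR adjusted p = 0.15, DESeq2 adjusted p = 0.011).

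Of the isoforms known from heart and skeletal muscle, Cox6a2 and Cox8b were highest in WT tumor 3. Cox6a2 measured 0.56, 0.269, 8.30 and 0.072 CPM in WT tumors 1 to 4, at most 0.139 in KO tumors and at most 0.248 in lines. Cox8b measured 0.35, 0.438, 1.602 and 0.072 CPM in WT tumors 1 to 4 and at most 0.243 in KO tumors, with 0 counts in all lines. The muscle genes Acta1 and Ckm reached 350.2 and 150.2 CPM in WT tumor 3, beside at most 14.7 and 5.35 CPM in any other tumor. Their part in the isoform values was not tested. Cox7a1, the third such isoform, had 1.05, 0.774, 2.37 and 3.02 CPM in WT tumors 1 to 4 and 0.518 to 1.25 CPM in lines. As raw counts it had 30, 23, 74 and 84 in WT tumors 1 to 4 and 18 to 74 in KO tumors, so the genotypes overlapped. Its WT value of 1.05 ± 0.44 did not pass (adjusted p = 0.055), while it passed under the 3 other scalings (adjusted p from 0.034 to 0.041). In KO it was not called under any scaling. The testis isoforms Cox7b2 and Cox8c had at most 0.144 CPM and 0 counts in any library. The common partners Cox6a1, Cox6b1, Cox7a2 and Cox8a were at 135, 136, 67.4 and 151 CPM on average in WT tumors. Without the tissue-restricted isoforms, the summed complex IV level in WT tumors was 1403 in place of 1410.3 CPM.

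**Figure D5:**
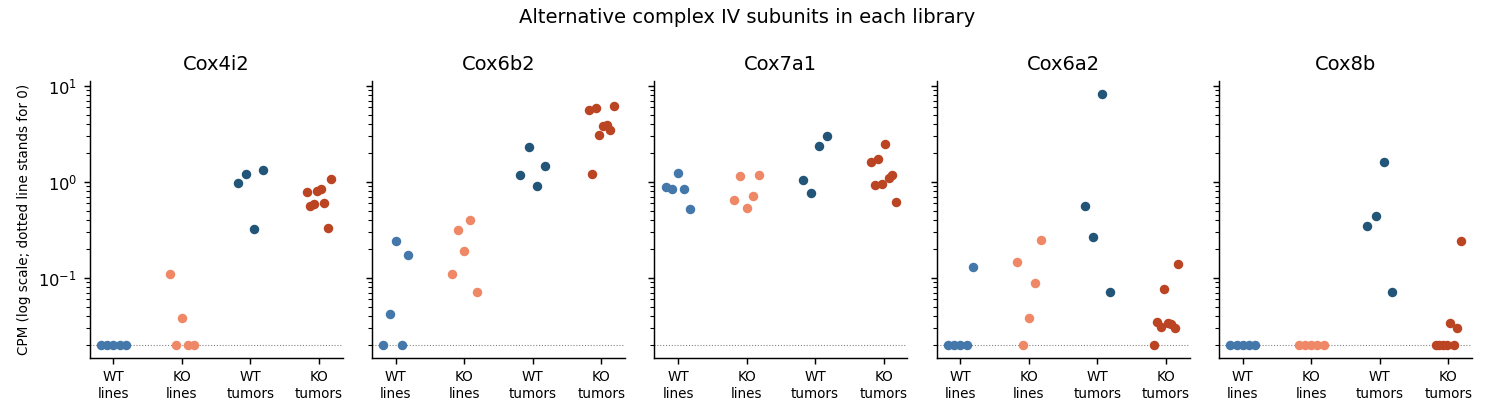
CPM (log axis) of 5 alternative complex IV isoforms in each library by group, where points on the dotted line stand for 0. Cox4i2 and Cox6b2 are above 0.3 CPM in all 12 tumors, and Cox6a2 reaches 8.30 CPM in WT tumor 3 and at most 0.56 CPM elsewhere.

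Other mitochondrial genes were counted from lists set by function. Together with glycolysis and proliferation, the 8 lists held 234 genes tested in tumors and 233 in lines. Between KO and WT, edgeR called 0 of them in either material. At an unadjusted p under 0.05, 19 were lower and 1 higher in KO lines, and 53 were lower and 4 higher in KO tumors, beside 3.59% and 3.40% of all genes in lines and 8.39% and 8.34% in tumors. With library totals alone the tumor counts were 24 and 7 (4.98% and 11.2% of all genes). DESeq2 called 0 in lines and 16 lower and 1 higher in tumors (1.84% and 3.03% of all genes), and limma-voom called 0. The list counts between tumors and lines stand beside 18.5% of all genes fallen and 28.0% risen in WT, and 22.9% and 34.2% in KO. A list of electron carriers, their donors, ubiquinone synthesis genes and Cyc1 (cytochrome c1 of complex III) fell for 13 and rose for 2 of 20 genes in each genotype. Etfa, which feeds electrons from fatty acid oxidation, had -1.50 in WT and -0.88 in KO. Of 49 assembly factors, 19 fell and 3 rose in WT and 18 fell and 5 rose in KO, with Lrpprc, which stabilises mitochondrial mRNAs, at -1.44 and -1.19. Of 20 genes of the citric acid cycle and pyruvate entry, 14 fell and 0 rose in WT and 15 fell and 2 rose in KO, with fumarase, Fh1, at -0.72 in both. Mitochondrial ribosome genes fell for 40 of 77 in WT and 56 of 77 in KO, and rose for 0 and 1. Import and carrier genes fell for 16 and 19 of 22, and rose for 0, with the chaperonin Hspd1 at -1.66 and -1.83. The regulators of biogenesis fell for 9 of 18 in each genotype and rose for 0 and 1, with Tfam, which packages mitochondrial DNA, at -0.74 and -0.65. The values named here all passed (adjusted p at most 0.00071).

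Beside the same shares of all genes, glycolysis genes fell for 10 of 16 in WT and 14 of 16 in KO, and rose for 0, with Pkm, a pyruvate kinase, at -1.26 and -1.42. The 12 proliferation genes all fell in both genotypes, also under the 3 other scalings, with Pcna, the DNA clamp, at -1.32 and -1.49. Median log2 fold changes were -1.77 and -1.99 for proliferation, -0.73 and -0.96 for glycolysis and -0.23 and -0.29 for the 80 genes of oxidative phosphorylation, in WT and KO. Beside these, fibroblast markers summed to at most 14.0 CPM in lines and at least 1870 CPM in tumors, and their part in the differences was not tested. With library totals alone, 92 of the 234 genes fell in WT and 114 in KO, beside 133 and 156 with TMM factors, and the medians of the other 7 lists were still negative, while assembly factors in KO stood at 0.02. Between KO and WT, proliferation genes had medians of -0.41 in lines and -0.61 in tumors with 0 of 12 positive in either, and glycolysis genes -0.14 and -0.51, without a call by edgeR.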

How the data were processed

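RNA from 22 mouse libraries (10 lines, 12 tumors) was prepared with a stranded mRNA kit, per the labels' protocols. The authors deposited raw counts per gene, in 1 table for lines and 1 for tumors. Trim Galore, STAR, bcl2fastq 1.9.0 and the build mm10 are named in the submitters' processing notes, while the counter, its annotation, its strand setting and its treatment of reads with several matches are not given in the sources used here. Positions and transcripts came from GENCODE vM21, in which 105 gene IDs had no match, and promoters and the mature microRNA from RefSeq.

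Genotype was tested in lines and in tumors apart, and material and the interaction in all 22 libraries, with edgeR 4.0.16 (R 4.3.3). The fits used filterByExpr by group, TMM factors, the robust quasi-likelihood test and Benjamini-Hochberg adjustment over all genes tested, at an adjusted p under 0.05. An SE is the absolute log2 fold change divided by the square root of F. Printed CPM use TMM factors over the 22 libraries. DESeq2 1.42.0, limma-voom (limma 3.58.1), 3 other scalings, 2 other filters, a non-robust fit, 1 fit for all libraries, blocks for the animal and leaving out libraries were alternatives. Depth ran from 24547650 to 31118113 counts, a count of 0 allows up to 3 counts, and such limits cover counting error only. Within a group, no 2 libraries agreed within sampling noise (chi-square over degrees of freedom at least 44.9), and pairs across groups were not compared. The calculations were tested on simulated data of independent libraries with a fixed spread below that of these data (biological coefficient of variation 0.42 in lines and 0.50 in tumors). That test checks the code and does not give error rates for these data.

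The genes, lists and alternatives were chosen with earlier results of these data known. Genes named were, in each comparison, those called, up to the 4 of smallest p per complex and direction (where none was called, the 2 of smallest unadjusted p per complex), the highest and lowest log2 fold change, the isoform pairs, the highest 2 and the lowest per complex by level, and up to 3 per other list by smallest p. Further genes were named after their values were seen where groups did not overlap, a microRNA site lay, DESeq2 made a call or a count needed its members. Titles pair a line and a tumor of the same animal in 5 animals. The correlation of their deviations from group means over 18662 genes was 0.326, 0.147 and 0.367 in WT and 0.0878 and -0.00449 in KO, and the consensus correlation used by limma was 0.287. The 13 symbols that are not protein-coding were left out, and the values of 1 gene are not reported here.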

Additional observations from a re-analysis of the deposited data

Results flagged for a closer look

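In 10 of 216 sets of values (1 gene or summed complex in 1 group each), the highest or lowest library lay far from the others by Dixon's criterion, and chance gives about 1 in 20. The highest library stood apart for summed complex III in WT lines (WT line 4, 894.8 CPM), for Sdha in WT tumors (WT tumor 3, 184 CPM), for Sdhd in KO lines (KO line 4, 222 CPM) and for Cox6b1 in WT lines (WT line 3, 160.0 CPM). The lowest library stood apart for Ndufa4 in KO tumors (KO tumor 6, 57.1 CPM).

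The other such libraries were the highest for isoforms close to 0. They were Cox6a2 in WT line 5 (0.130 CPM) and in WT tumor 3 (8.30 CPM), Cox7b2 in KO tumor 3 (0.0311 CPM) and in WT tumor 4 (0.144 CPM), and Cox8b in KO tumor 8 (0.243 CPM).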

How the results depend on the processing

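The counts of genes lower and higher between KO and WT were 0 in lines, in tumors and for the interaction under every alternative run, except that DESeq2 gave 1 higher and 5 lower in tumors. Without each library in turn, the median log2 fold change ranged from -0.15 to -0.07 in lines, from -0.21 to -0.09 in tumors and from -0.03 to 0.05 for the interaction, and the counts stayed at 0. For WT tumors against lines, the same ranges were 3 to 5 higher, 23 to 31 lower and a median of -0.28 to -0.20. For KO they were 6 to 8 higher, 26 to 38 lower and a median of -0.33 to -0.23. The WT count of higher genes was 7 with upper quartile factors and 7 with library totals alone, where the median was -0.12 and -0.070. The KO count of higher genes was 11, 14, 3 and 11 with upper quartile factors, library totals, no filter and DESeq2, and that of lower genes was 22 with upper quartile factors and 14 with library totals. The KO median was -0.18 with RLE factors, -0.16 with upper quartile factors, -0.074 with library totals and -0.18 with DESeq2. With the replicate block in the 5 animals the KO values were 1 higher, 13 lower and a median of -0.42, from 2 animals. The replicate block over all libraries by limma-voom left 0 interaction calls and gave 29 lower and 4 higher in WT. Among 126 results for single genes, 3676 alternative values kept direction and side of the threshold, 116 lost the call, 33 gained one and 17 changed sign. These were Sdhd between KO and WT lines without WT line 5 (0.025, with -0.27 to 0.025 over all single libraries left out), Uqcrb in WT tumors against lines with RLE factors (0.0021), upper quartile factors (0.033), library totals (0.081) and DESeq2 (0.0021), and in KO tumors against lines Sdha (0.0098) and Cox7a2l (0.055) with library totals and Atp5e (-0.064) and Atp5mpl (-0.022) with the replicate block. Cox6b1 in WT tumors against lines had 0.076, 0.10, 0.15, 0.036 and 0.076 with RLE factors, upper quartile factors, library totals, a mean CPM of at least 1 and DESeq2, and 0.062, 0.015 and 0.089 without WT line 3, WT tumor 2 and WT tumor 3, within -0.13 to 0.089 over all single libraries left out. The block in the 5 animals changed both the animals used and the design, and the causes of these changes were not tested. Isoforms with 0 to 3 counts in most lines are limited by depth.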
